A study of Rattus norvegicus with 18 samples.

Results

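Enzymes that remove reactive oxygen species and that modify drugs, lipids and aldehydes were followed in rat kidney after recovery from ischemic acute renal failure (ARF). The members were all array clones with 1 gene symbol that belonged to the glutathione S-transferase, glutathione peroxidase, peroxiredoxin, thioredoxin, superoxide dismutase, metallothionein, cytochrome P450, glucuronosyltransferase, sulfotransferase, aldehyde or alcohol dehydrogenase, aldo-keto reductase or epoxide hydrolase families, or to Nqo1. They were chosen by name, and 46 of the 2304 clones met the rule, out of 1489 clones with 1 symbol. A further 6 clones carried more than 1 symbol, at least 1 of them from these families, and were not counted as members.

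Total kidney RNA came from 12 rats: 6 sham-operated animals and 6 ARF animals, in which 52 min of ischemia and reperfusion had been followed by 35 days of recovery. The labels pair each ARF rat with 1 sham rat (pairs A to F), and each pair was hybridised on 2 two-colour cDNA arrays with the dyes exchanged. Another 6 arrays, R1 to R6, compared the same 6 sham rats with one another. Strain, sex and age are not given in the labels, and the labels name no transgene and no drug. The 6 pairs were the replicates, and the 2 arrays of a pair were averaged.

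Superoxide dismutases turn superoxide into hydrogen peroxide, and peroxidases and peroxiredoxins then reduce the peroxide at the cost of glutathione or thioredoxin. Cytochromes P450 add oxygen to drugs, steroids and fatty acids, and epoxide hydrolases, dehydrogenases, reductases and transferases handle the products. In the kidney most of these enzymes are concentrated in the proximal tubule, which is also the segment most exposed to ischemic injury.

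Promoter sequences are shown for Sod2, Gsta2 and Mt2A, because the first 2 are members described below with unadjusted p under 0.05, and Mt2A held the most motif matches among the members. The sequences are the 250 bases before the gene start in RefSeq (rat build GRCr8), 5′ to 3′ on the gene's strand, and capitals mark matches, on either strand, to the antioxidant response motif TGACNNNGC or to the metal response motifs TGCACNC and TGCGCNC. The Sod2 window is chr1:50050169-50050418, that of Gsta2 is chr8:88077093-88077342 and that of Mt2A is chr19:10838709-10838958, all on the minus strand.
Sod2: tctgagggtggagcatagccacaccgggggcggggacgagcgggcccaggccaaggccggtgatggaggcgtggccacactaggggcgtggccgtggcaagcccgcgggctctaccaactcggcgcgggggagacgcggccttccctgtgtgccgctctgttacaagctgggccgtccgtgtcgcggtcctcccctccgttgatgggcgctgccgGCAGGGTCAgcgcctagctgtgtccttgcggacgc
Gsta2: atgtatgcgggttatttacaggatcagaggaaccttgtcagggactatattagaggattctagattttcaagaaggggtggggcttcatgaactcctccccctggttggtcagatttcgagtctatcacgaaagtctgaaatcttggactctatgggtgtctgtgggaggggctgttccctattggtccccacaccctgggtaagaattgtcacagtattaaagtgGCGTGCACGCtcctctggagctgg
Mt2A: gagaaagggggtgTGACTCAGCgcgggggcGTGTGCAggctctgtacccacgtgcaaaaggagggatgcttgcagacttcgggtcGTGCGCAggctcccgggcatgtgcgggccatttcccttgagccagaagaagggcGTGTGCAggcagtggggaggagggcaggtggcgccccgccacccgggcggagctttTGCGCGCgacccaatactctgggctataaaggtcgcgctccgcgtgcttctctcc

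The table held a promoter for 36 of the 46 members. The antioxidant motif was found in 6 of the 36 and in 10.1% of all 33469 promoters of this length. The 6 were Aldh1a2, Cyp4b1, Ephx1, Gstm7, Mt2A and Sod2. The metal motif was found in 9 of the 36 (Adh1c, Akr1a1, Akr1c14, Cyp2c23, Cyp4f1, Ephx1, Gsta2, Mt2A and Sult1b1) and in 20.6% of all promoters. Mt2A held 4 metal matches, a number reached or passed by 0.266% of all promoters, and 1 antioxidant match. The Sod2 match lay on the other strand, 35 to 27 bases before the start, and the 2 Gsta2 matches overlapped. These are matches of letters and were not linked to any measurement on the arrays.

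Values are deposited log ratios of the 2 channels, with a log base that the sources used here do not give. A positive value is read as higher in ARF; this direction was assumed, because the labels do not state it, and the opposite convention would turn every sign. Every array was centred on its mean by the authors. Of the 46 members, 42 had a value on some ARF-sham array, 35 on both arrays of at least 1 pair, and 29 on both arrays of at least 4 pairs. The 29 were among 947 clones tested by limma, with the 6 pairs as replicates. In bulk kidney RNA, fewer cells of a type and less RNA per cell cannot be told apart.

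None of the 29 tested enzymes passed an adjusted p of 0.05 in limma, against 9 of 947 clones (0.95%). Their adjusted p lay between 0.181 and 0.978. At an unadjusted p under 0.05 there were 3 members of 29 (10.3%), against 14.7% of all clones: Sod2, Gsta2 and Gstt1. All 3 had a mean below 0, a side that held 7.81% of all clones at that p, while 6.86% were on the other side and no member was. The mean was below 0 for 19 of the 29 (65.5%) and for 45.9% of all clones. The median of the members' means was -0.036, beside 0.015 over all clones tested. A single sign in every measured pair was seen for 1 member, Sod2 (3.45%), and for 13.4% of all clones, with 7.18% below 0 in every measured pair. The 95% intervals given with the members state how large a difference the pairs allow.

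**Figure D1:**
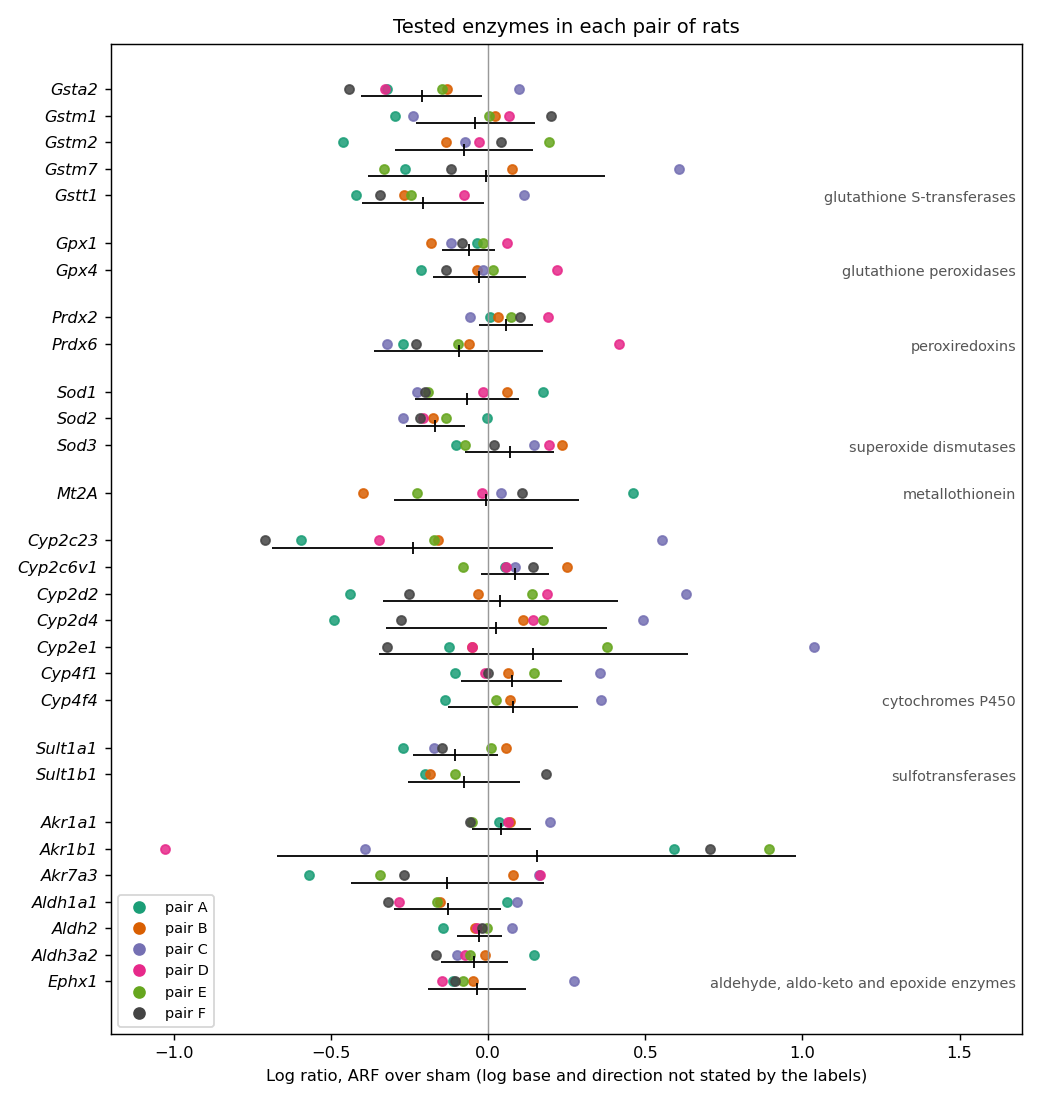
Log ratio of ARF over sham (horizontal axis, log base not given) for the 29 tested enzymes, grouped by class, with 1 coloured point per pair of rats a black tick for the mean and a black line of 1 SD to each side. The points of most enzymes lie on both sides of 0, Sod2 is below 0 in all 6 pairs, and Akr1b1 and Cyp2e1 spread widest.

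Superoxide dismutases were all tested in 6 pairs. Sod2, the manganese enzyme of mitochondria, had values of -0.0031, -0.18, -0.27, -0.21, -0.13 and -0.22 in pairs A to F. Pair A was close to 0 and the other pairs were below it. The mean was -0.17 ± 0.093 (SD, n = 6; 95% interval -0.29 to -0.046), with an unadjusted p of 0.0121 and an adjusted p of 0.181 in limma. Its values on the 6 sham-sham arrays ran from -0.18 to 0.29, so single sham-sham readings were as large in size as the ARF pairs. The arrays with sham in Cy3 gave a mean of -0.10 and those with sham in Cy5 gave -0.24.

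Sod1, the copper-zinc enzyme of the cytosol, had values of 0.17, 0.060, -0.23, -0.016, -0.19 and -0.20. It lay above 0 in pairs A and B and below 0 in the other 4. Its mean was -0.067 ± 0.16 (SD, n = 6; 95% interval -0.22 to 0.083; adjusted p = 0.651, limma). Sod3, the secreted form bound to the extracellular matrix, had values of -0.10, 0.23, 0.14, 0.19, -0.074 and 0.017, with a mean of 0.069 ± 0.14. The 3 dismutases therefore did not share an order of pairs: in pairs B, C, D and F, Sod3 was above 0 while Sod2 was below it.

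Glutathione peroxidases were close to 0. Gpx1, the abundant cytosolic selenoenzyme that reduces hydrogen peroxide, had values of -0.035, -0.18, -0.12, 0.059, -0.016 and -0.082. Its mean was -0.062 ± 0.084 (SD, n = 6), and its 95% interval of -0.18 to 0.058 is among the narrower ones. Gpx4, which reduces lipid peroxides in membranes, had values of -0.21, -0.036, -0.017, 0.22, 0.015 and -0.13, with a mean of -0.028 ± 0.15. Pairs A and D gave opposite signs of nearly the same size for Gpx4.

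Both peroxiredoxins were measured in 6 pairs, and no thioredoxin clone met the rule. Prdx2, a cytosolic 2-cysteine peroxiredoxin, had values of 0.0050, 0.030, -0.057, 0.19, 0.073 and 0.10 and a mean of 0.057 ± 0.085 (adjusted p = 0.641, limma). Prdx6, the 1-cysteine form that also acts on phospholipids, had values of -0.27, -0.062, -0.32, 0.42, -0.096 and -0.23. Pair D stood above 0 and the other 5 pairs below it, around a mean of -0.094 ± 0.27. Without a pair the Prdx6 mean ran from -0.20 to -0.048. Its sham-sham values reached -0.94 on R2 and -0.62 on R3, larger in size than any ARF pair.

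Mt2A, a metallothionein that binds zinc, cadmium and copper and scavenges radicals, was the 1 metallothionein member. Its values were 0.46, -0.40, 0.042, -0.020, -0.23 and 0.11. Pairs A and B lay at the opposite ends, 3 pairs were above and 3 below 0, and the mean was -0.0057 ± 0.29 (SD, n = 6; 95% interval -0.22 to 0.21). The sign of this mean turned under several settings, which are given with the processing alternatives. On the sham-sham arrays R1 to R6, Mt2A read 0.36, -0.0065, 0.23, 0.29, 0.34 and 0.42.

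Cytochromes P450 made up the largest class, with 16 members and 7 tested. Their median SD over pairs was 0.352, against 0.194 for the glutathione S-transferases, 0.142 for the dismutases and 0.168 for all clones. Among the 100 most variable of the 947 clones were 8 members, and 4 of them were P450s. Cyp2e1, the ethanol-inducible P450, had values of -0.12, -0.051, 1.04, -0.051, 0.38 and -0.32 and ranked 16 by SD. Its mean was 0.14 ± 0.49 (SD, n = 6; 95% interval -0.19 to 0.48; adjusted p = 0.655, limma), and without pair C it was -0.034. On the sham-sham arrays R1 to R6 Cyp2e1 read -0.78, -0.68, 1.00, 0.15, 0.76 and -0.23. The single sham-sham readings thus spanned a range as wide as the ARF-sham pair values. They hold any dye effect, while each pair value averages 2 arrays with the dyes exchanged, so the ranges are not alike in kind. Around a loop of 5 sham-sham arrays described below, where differences between rats cancel and 1 dye effect does not, Cyp2e1 summed to -1.18.

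Cyp2c23, the main arachidonic acid epoxygenase of rat kidney, had values of -0.60, -0.16, 0.55, -0.35, -0.17 and -0.71. It was below 0 in 5 pairs and above 0 in pair C. The mean was -0.24 ± 0.45 (SD, n = 6; 95% interval -0.55 to 0.066; adjusted p = 0.465, limma). Leaving out 1 pair at a time moved the mean between -0.40 and -0.15, and the lowest adjusted p was 0.054, which is still above the threshold. Its sham-sham values ran from -0.52 to 0.52.

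Cyp2d2, a P450 of the debrisoquine-oxidising subfamily, had values of -0.44, -0.033, 0.63, 0.19, 0.14 and -0.25 and a mean of 0.039 ± 0.37. Cyp2d4 of the same subfamily had a mean of 0.026 ± 0.35, with its lowest value (-0.49) in pair A and its highest (0.49) in pair C. The 2 clones may share signal, since nothing tested how far near-identical Cyp2d transcripts hybridised to each other's clone. The same limit holds for Cyp2c6v1 and Cyp2c23 and for the Gstm clones. Cyp2c6v1 was steadier, with values of 0.054, 0.25, 0.084, 0.058, -0.080 and 0.14 and a mean of 0.085 ± 0.11.

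Cyp4f1 and Cyp4f4 hydroxylate fatty acids and leukotrienes. Cyp4f1 had values of -0.11, 0.063, 0.36, -0.011, 0.14 and 0.00040 and a mean of 0.074 ± 0.16. Cyp4f4 was measured in pairs A, B, C and E and had a mean of 0.079 ± 0.21 (SD, n = 4). In pair C all 7 tested P450s were above 0, with a median of 0.49. In pair A 6 of 7 were below 0 (median -0.14), and in pair F 4 of 6 were below 0 (median -0.26). Across the pairs the P450 median therefore ranged more widely than that of the GSTs, which ran from -0.32 to 0.10, or that of the aldehyde, alcohol, aldo-keto and epoxide enzymes, which ran from -0.10 to 0.091. No test was made on these medians, which rest on unequal numbers of clones.

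The other 9 P450 clones were not tested. Cyp11a1 (first step of steroid synthesis), Cyp2a3 and Cyp7a1 (bile acid synthesis) had no value on any ARF-sham array. Cyp1a2, Cyp2c12 and Cyp2f4 had values on 2 to 4 arrays and in no complete pair. Cyp4b1 read 0.020, 0.19 and -0.081 in pairs A, E and F. Cyp51, the sterol demethylase of cholesterol synthesis, read 0.089 and 0.042 in pairs E and F, and Cyp2c22 read -0.10 in pair E. Many of these are known as liver, lung or steroid-tissue enzymes, and an empty cell shows only that the authors' spot filter left no value.

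**Figure D2:**
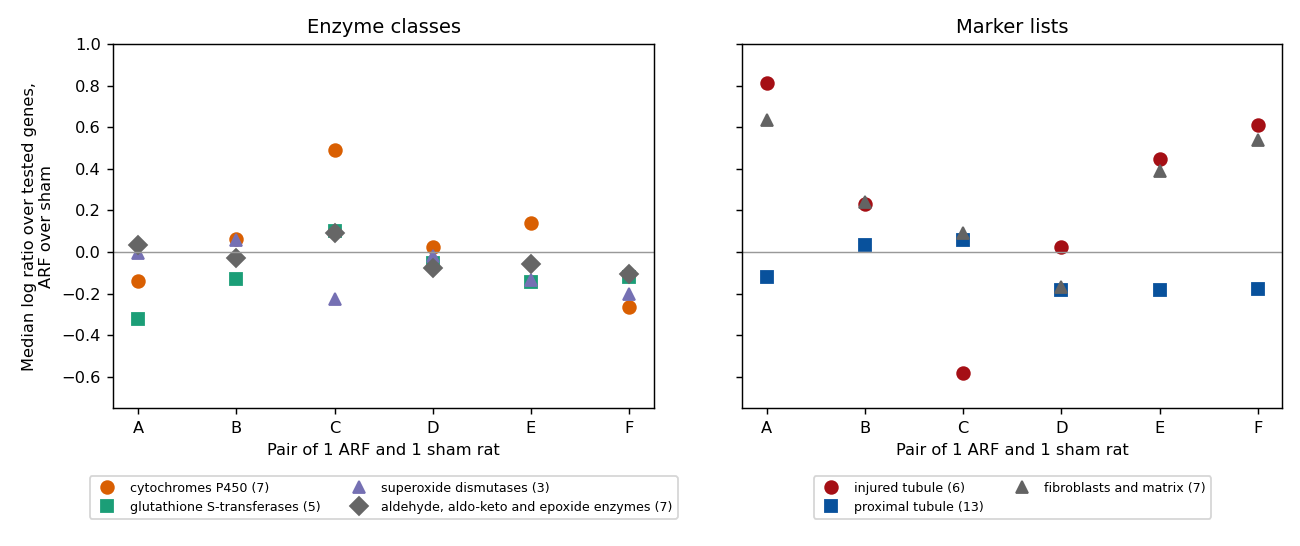
Median log ratio of ARF over sham (vertical axis, log base not given) in pairs A to F, over tested genes. The classes drawn are the P450s, glutathione S-transferases, dismutases and the aldehyde, alcohol, aldo-keto and epoxide enzymes. The marker lists drawn are injured tubule, proximal tubule, and fibroblasts and matrix. Other classes and lists are not drawn. The P450 median is highest in pair C (0.49) and lowest in pair F (-0.26), and the injured-tubule marker median is lowest in pair C (-0.58).

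Marker genes also varied across the pairs. The injured-tubule list (6 tested of 10 listed) had pair medians of 0.81, 0.23, -0.58, 0.026, 0.45 and 0.61, so that pair C stood lowest. The fibroblast and matrix list (7 tested of 9) had 0.63, 0.24, 0.091, -0.17, 0.39 and 0.54. Of its clones 2 were called higher, against 0.95% of all clones called on either side. These calls, and the Egf call below, were lost without pair E or without pair F, where no clone was called. They were also lost with the trend and robust options of limma and without moderation. Proximal tubule markers (13 tested of 34) had -0.12, 0.035, 0.057, -0.18, -0.18 and -0.18, with a median of means of -0.055. Of these 13, 9 had a mean below 0 and 4 above it, and 5 had an unadjusted p under 0.05 in limma, all lower, against 7.81% of all clones on that side, with none called. Cubn, an endocytic receptor of that segment, had a mean of -0.22 ± 0.20 (SD, n = 6), the water channel Aqp1 -0.20 ± 0.14 (n = 4), the peroxisomal oxidase Hao2 -0.37 ± 0.27 (n = 5) and the receptor Lrp2 -0.055 ± 0.16 (n = 6). The 4 markers above 0 were Agxt2 (0.11), Mme (0.11), Anpep (0.092) and Ggt1 (0.071), named here after their values were seen. Loop and distal tubule markers (7 tested of 12) had pair medians of -0.21, -0.12, -0.20, -0.15, -0.16 and -0.45 and a median of means of -0.24. Of these, 4 had an unadjusted p under 0.05, all lower, and 1 was called, the growth factor Egf, at -0.34 ± 0.16 (SD, n = 6; adjusted p = 0.048, limma). Collecting duct markers (4 tested of 9) had a median of means of -0.051 and macrophage markers (2 tested of 14) of 0.21, with none called. The tested macrophage markers were RT1-Ba and RT1-Db1 alone. Others of that list were complete only in pairs A, E and F and were mixed in sign. Lyz2 read 0.27, -0.74 and -0.56, Ctss 0.73, -0.13 and 0.38, and C1qb 0.39, 0.12 and 0.21. Clones of the hepatocyte list (5 clones) and of the erythrocyte list (4 clones) were not measured in enough pairs to be tested. How far these cell markers account for the enzyme values was not tested.

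Aldo-keto reductases, which reduce aldehydes and ketones with NADPH, included the most variable member. Akr1b1, the aldose reductase that makes the osmolyte sorbitol in the renal medulla, had values of 0.59, -0.39, -1.03, 0.89 and 0.70 in pairs A, C, D, E and F. In pair B only the array with sham in Cy5 had a value, 1.12, so that pair was left out. With pairs on 1 array kept, the mean over 6 pairs was 0.32. The 2 low pairs and 3 high pairs did not meet, and only 1 of the 947 clones had a larger SD. The mean was 0.15 ± 0.83 (SD, n = 5; 95% interval -0.41 to 0.72; adjusted p = 0.768, limma) and became -0.031 without pair E. Its sham-sham values were -1.15, -1.06, -0.46, 0.66 and 0.037 on R1, R2, R4, R5 and R6. These single-array readings were as large in size as those of the ARF pairs. Sord, which oxidises sorbitol to fructose and was picked after its values were seen, had -0.12, -0.082, 0.22, -0.24, -0.41 and -0.52 (mean -0.19 ± 0.26; adjusted p = 0.356, limma).

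Akr7a3, which reduces aflatoxin dialdehyde, had values of -0.57, 0.077, 0.16, 0.17, -0.34 and -0.27. It was above 0 in pairs B, C and D and below 0 in pairs A, E and F, with a mean of -0.13 ± 0.31. Akr1a1, the general aldehyde reductase, had 0.034, 0.068, 0.20, 0.062, -0.050 and -0.058 and a mean of 0.042 ± 0.093. Akr1c14 had values on 2 arrays and in no complete pair.

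Among aldehyde dehydrogenases, Aldh1a1, which oxidises retinal to retinoic acid, had values of 0.059, -0.15, 0.091, -0.28, -0.16 and -0.32. Pairs A and C were above 0 and the other 4 below. Its mean was -0.13 ± 0.17 (SD, n = 6; 95% interval -0.28 to 0.025; adjusted p = 0.431, limma). Aldh2, the mitochondrial acetaldehyde dehydrogenase, had -0.14, -0.043, 0.075, -0.034, -0.0024 and -0.018, the smallest SD of the tested members (mean -0.028 ± 0.071). Its 95% interval was -0.14 to 0.089. Aldh3a2, which oxidises fatty aldehydes, had a mean of -0.044 ± 0.11.

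Ephx1, the microsomal epoxide hydrolase, had values of -0.11, -0.049, 0.27, -0.15, -0.079 and -0.10. Pair C was above 0 and the other 5 were below, around a mean of -0.036 ± 0.15. Of the untested enzymes of this class, the alcohol dehydrogenase Adh1c read -0.40, 0.027 and -0.30 in pairs A, E and F. Nqo1, the quinone reductase used as a marker of the oxidative stress response, read -0.37 in pair A, its 1 complete pair. Aldh1a2 read 0.054 in pair E, and Aldh1l1 and Ephx2 had no complete pair.

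Glutathione S-transferases couple glutathione to electrophiles, and 5 of the 6 members were tested. All 5 means were below 0, from -0.21 to -0.0061, with a median of -0.078. That median was -0.0012 without pair A and -0.16 without pair C, and -0.14 and -0.18 with the first or the second spot alone, and the signs of Gstm1 and Gstm7 turned without single pairs. Gsta2, the alpha class enzyme abundant in proximal tubule, had values of -0.32, -0.13, 0.10, -0.33, -0.15 and -0.44. Pair C alone was above 0. The mean was -0.21 ± 0.19 (SD, n = 6; 95% interval -0.38 to -0.048), with an unadjusted p of 0.0163 and an adjusted p of 0.204 in limma. Without pair C the mean was -0.27 and the adjusted p 0.060. The sham-sham readings of Gsta2 ran from -0.049 to 0.29; the order of the sham rats on those arrays is arbitrary, so only their size can be set beside the ARF pairs, and 3 of the 6 pairs (A, D and F) were larger in size than 0.29.

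Gstt1, a theta class transferase, had values of -0.42, -0.27, 0.11, -0.077, -0.25 and -0.35. It too was above 0 in pair C alone. The mean was -0.21 ± 0.19 (SD, n = 6; 95% interval -0.37 to -0.043), with an unadjusted p of 0.0184 and an adjusted p of 0.224 in limma, and -0.27 with an adjusted p of 0.060 without pair C. Both dye orientations gave similar means for Gstt1, -0.17 with sham in Cy3 and -0.24 with sham in Cy5. Gsta2 gave -0.078 and -0.35.

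In the mu class, Gstm7 was likewise highest in pair C, while Gstm1 and Gstm2 were below 0 there. Gstm1 had values of -0.30, 0.021, -0.24, 0.065, 0.0023 and 0.20 and a mean of -0.042 ± 0.19. Gstm2 had -0.46, -0.14, -0.074, -0.028, 0.19 and 0.039 and a mean of -0.078 ± 0.22. Gstm7, measured in 5 pairs, had a mean of -0.0061 ± 0.38, with -0.33 in pair E and 0.61 in pair C. The 3 mu class means had adjusted p from 0.651 to 0.978 in limma. Gstt2 had no value on any ARF-sham array.

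Sulfotransferases add sulfate to phenols and steroids. Sult1a1, the phenol form, had values of -0.27, 0.057, -0.17, 0.0073 and -0.15 in pairs A, B, C, E and F, with a mean of -0.10 ± 0.13 (SD, n = 5). Sult1b1 had -0.20, -0.19, -0.10 and 0.18 in pairs A, B, E and F and a mean of -0.077 ± 0.18 (n = 4). The 1 glucuronosyltransferase clone, Ugt2b, had values on 4 arrays and no complete pair.

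More members were called for a dye effect than for ARF against sham. The dye effect was taken as the difference between both arrays of a pair divided by 2, positive where the label favoured Cy5. limma called it for 7 of the 29 members (24.1%), against 16.1% of all clones, namely Sod1, Mt2A, Prdx2, Gpx4, Aldh2, Ephx1 and Akr7a3. All 7 were positive. Over all clones, 99 of the 152 past the threshold were positive, which is 10.5% of the 947 tested. The dye effect was above 0 for 26 of 29 members (89.7%) and for 57.4% of all clones. For Sod1 it was 0.20 ± 0.039 (SD, n = 6; adjusted p = 0.0052) and positive in 6 of 6 pairs, so the mean log ratio was 0.13 with sham in Cy3 and -0.27 with sham in Cy5. For Mt2A it was 0.22 ± 0.046 (SD, n = 6; adjusted p = 0.0052), between 0.16 and 0.29 in the 6 pairs. Prdx2 had means of 0.23 and -0.12 in the 2 orientations.

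Averaging the 2 arrays of a pair removes a dye effect that is equal on both. Arrays of 1 orientation alone gave a members' median of 0.086 with sham in Cy3 and -0.12 with sham in Cy5, beside -0.012 and -0.0038 for all clones. Neither orientation alone called a member in limma, against 2.45% and 0.943% of all clones. At an unadjusted p under 0.05 there were 5 of 31 members with sham in Cy3 (21.7% of all clones) and 10 of 31 with sham in Cy5 (18.8%). With all 12 arrays and the pair as a replicate block, limma called no member and 4.65% of all clones, and 4 of 29 members had an unadjusted p under 0.05, against 16.8%. The sham-sham arrays had no dye exchange, and Sod1 and Mt2A were above 0 on 5 of those 6 arrays.

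**Figure D3:**
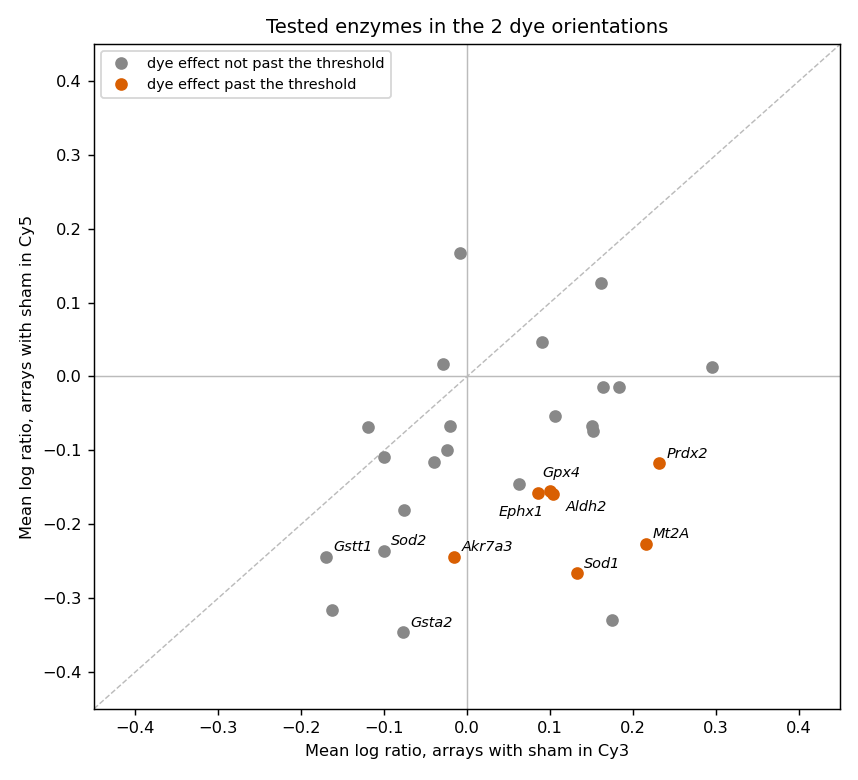
Mean log ratio of each tested enzyme on arrays with sham in Cy3 (horizontal axis) and in Cy5 (vertical axis), log base not given, with enzymes called for a dye effect marked and the diagonal showing equal means. Most points lie below the diagonal, Sod1 at 0.13 and -0.27, while Gstt1 lies close to it at -0.17 and -0.24.

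The sham-sham arrays show single readings without injury, in which differences between rats, dye and array were not separated. These arrays were read after the exchange of row blocks given with the processing. They can be linked into a loop of 5 arrays (rats A, F, B, D, E and back to A) along which differences between rats add up to 0, apart from 1 dye effect that does not cancel. For 21 members with a value on all 5 arrays, the median size of the sum was 0.34, beside 0.30 for 411 tested clones. The sum was -1.18 for Cyp2e1, -0.99 for Cyp2c23, 1.29 for Prdx6, 1.23 for Sult1a1 and 0.84 for Mt2A, and 0.13 for Gstm1. Akr1b1 had no value on R3 and could not be summed. The sham-sham values of all members are therefore given as single array readings and not as levels of rats.

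**Figure D4:**
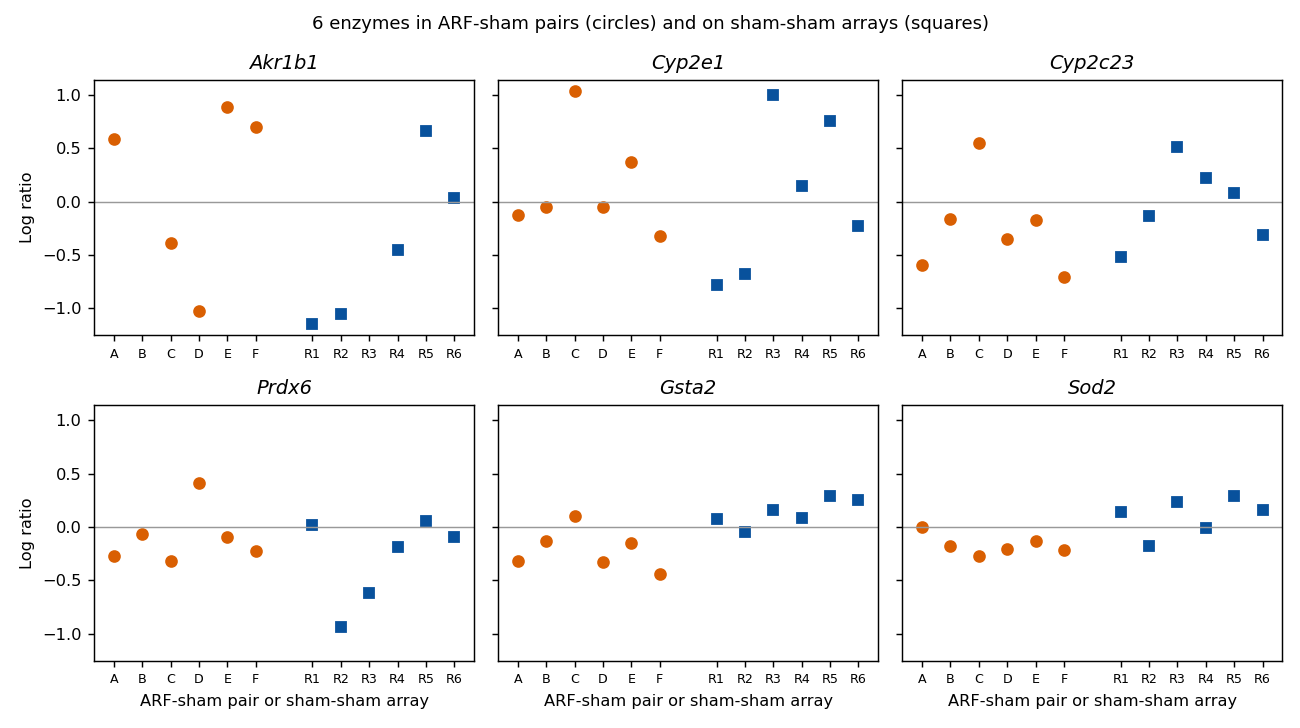
Log ratios (log base not given) of selected enzymes in the 6 ARF-sham pairs and on the 6 sham-sham arrays, with 1 point per pair or array. The sham-sham points of Cyp2e1 run from -0.78 to 1.00 and those of Akr1b1 from -1.15 to 0.66, which overlaps their ARF-sham points.

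Genes that work with these enzymes were read from lists of partners. No clone of any of the 5 lists was called, against 0.95% of all clones, a share too low to expect calls among so few. Of the list for glutathione synthesis, reduction and transport, 7 of 21 genes were tested, with a median of means of -0.016. Gclm, the regulatory subunit of the rate-limiting enzyme of glutathione synthesis, had values of -0.019, 0.00032, -0.22, -0.22, -0.33 and -0.33 and a mean of -0.19 ± 0.15 (SD, n = 6; adjusted p = 0.195, limma). Oplah, which returns 5-oxoproline to glutamate, had a mean of -0.16 ± 0.24. For NADPH supply, 3 of 13 were tested (median -0.14). Idh1, the cytosolic isocitrate dehydrogenase, had 0.35, -0.073, 0.062, -0.69, -0.54 and -0.47, with pairs D, E and F far below the others and a mean of -0.23 ± 0.40. Mthfd1, a folate enzyme, had a mean of -0.14 ± 0.17.

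Of other antioxidant proteins, 13 of 33 were tested (median 0.024), 1 with an unadjusted p under 0.05 on each side. Ucp2, a mitochondrial carrier linked to lower superoxide output, had 0.35, 0.14, 0.086, 0.57 and 0.49 in pairs A, B, C, E and F, all above 0, and a mean of 0.33 ± 0.21 (SD, n = 5; adjusted p = 0.102, limma). Selenop, the selenium carrier, had a mean of -0.16 ± 0.15 (SD, n = 6; adjusted p = 0.289, limma), and the iron carrier Tf had 0.27 ± 0.39. Of other drug and metabolite enzymes, 15 of 46 were tested, 12 with a mean below 0 and a median of -0.11. The carboxylesterase Ces2c was below 0 in 6 of 6 pairs, at -0.28, -0.20, -0.13, -0.32, -0.10 and -0.26, with a mean of -0.21 ± 0.086 (SD, n = 6; adjusted p = 0.093, limma). Hsd11b1, which regenerates active glucocorticoid, had a mean of -0.25 ± 0.26 (SD, n = 6; adjusted p = 0.224, limma). Of 17 regulators only Nfe2l2, the factor that binds the antioxidant motif, was tested, with a mean of -0.071 ± 0.21 (SD, n = 5).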

How the data were processed

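The deposited values are the authors' normalized log ratios of two-colour cDNA arrays. ImaGene 4.1 made the raw data, per the labels, and an earlier published method set spot quality, detection and the treatment of weak signals. Neither the log base nor the direction is given in the sources used here. The share of empty cells was 57.1%, every array mean was 0, and array medians ran from -0.042 to 0.029. ARF-sham arrays held 1586 to 2786 of 4608 spots, sham-sham arrays 914 to 2232. The number of pairs of rats limits the precision.

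The 2 spots of each clone were averaged, then the 2 arrays of each pair. The arrays of a pair correlated at r from 0.20 to 0.58 (median 0.46), so both were taken to run the same way. Arrays of different pairs correlated at r from -0.11 to 0.70 (median 0.16) in the same dye order. In the other dye order they correlated at r from -0.30 to 0.48 (median -0.070). The ranges overlap, so the direction within a pair rests mainly on the medians. Sham-sham columns had adjacent blocks of 288 rows exchanged, chosen after the values were seen. This raised the correlation of where values were present from -0.014 to 0.70. Names came from the platform annotation, updated through RefSeq (1483 of 1489 matched). A clone needed both arrays of 4 or more pairs and was tested against 0 with limma 3.58.1 (R 4.3.3, eBayes), Benjamini-Hochberg adjusted over 947 clones at 0.05. The procedure was tested on simulated data. The pairing comes from the labels: both rats of a pair share an array.

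Members and lists were chosen with earlier results of these data known. Pair values are given for members with an unadjusted p under 0.05 in either limma test and for the 3 largest means of each class. Partners named have an unadjusted p under 0.05 or are the 2 largest of their list. Alternatives changed centring, spots, orientation, pair minimum, model and pairs.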

Additional observations from a re-analysis of the deposited data

Results flagged for a closer look

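Of 36 sets of 6 pair values examined for a single distant pair, 3 had one, where chance gives about 1 in 20. Ephx1 read 0.27 in pair C, while the other 5 pairs lay between -0.15 and -0.049. Prdx6 read 0.42 in pair D, with the others between -0.32 and -0.062. The median of both peroxiredoxins in pair D was 0.30, with the others between -0.19 and -0.011, and it holds the same Prdx6 value.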

How the results depend on the processing

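No member was called in any of the 22 settings tried. Settings that called no clone could not call a member. In the others at most 4.65% of all clones were called, too few to expect more than a stray call among the members. The absence of calls is therefore not a result about the enzymes. Of 947 clones tested, 9 were called as reported, 15 with median centring and 5 with centring per block of rows. Clones called numbered 28 of 1141 with sham in Cy3 only, 5 of 1250 with pairs on 1 array kept and 4 of 1111 with at least 3 pairs. They numbered 15 of 842 with the second spot and 17 of 742 with both spots needed. They numbered 0 with the trend and robust options of limma (79 at an unadjusted p under 0.05). An ordinary t test without moderation also called 0 (129 at that p). Without 1 pair they numbered 0 to 19: 4 without A, 1 without B, 19 without C, 18 without D, and 0 without E (68 at an unadjusted p under 0.05, limma) or without F (59). With the pair as replicate block over 12 arrays there were 44 (4.65%), and with a dye term 28. Without the block, a fit on 12 rat levels called 2 of 421 clones. Those levels were solved from the pair values and the sham-sham arrays, after the exchange of row blocks. ARF and sham levels were then compared unpaired, so this setting also rests on the sham-sham arrays. The dye effect was called for 55 to 175 clones (152 as reported) and 2 to 8 members (7 as reported) without 1 pair, the lowest without pairs D and C. The cause was not tested.

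The glutathione S-transferase median ran from -0.16 to -0.0012 without 1 pair at a time and was -0.14, -0.18 and -0.16 with the first spot, the second spot and both spots needed. With sham in Cy3 only, class medians were 0.091 for dismutases, 0.040 for sulfotransferases and 0.086 for the aldehyde, alcohol, aldo-keto and epoxide enzymes; with sham in Cy5 only they were -0.24 and -0.16 for the first and last. Of 471 member values under alternatives, 33 changed sign, in 17 members, all with adjusted p above 0.05. With sham in Cy3 only these were Sod1 (0.13), Sult1b1 (0.19), Ephx1 (0.086), Mt2A (0.22), Gpx4 (0.10), Gstm1 (0.063), Aldh2 (0.10) and Cyp4f4 (-0.046). With sham in Cy5 only they were Prdx2 (-0.12), Cyp2d4 (-0.054), Cyp2d2 (-0.073), Akr1a1 (-0.067), Cyp2c6v1 (-0.014), Cyp4f1 (-0.015) and Gstm7 (0.017). Median centring gave Mt2A 0.011 and Gstm7 0.013, centring per block Mt2A 0.0072, Gstm7 0.0025 and Aldh2 0.0085, and the second spot Mt2A 0.016. Without 1 pair at a time, the means with a change of sign ran from -0.068 to 0.13 for Cyp2d4, -0.079 to 0.13 for Cyp2d2, -0.031 to 0.45 for Akr1b1, -0.099 to 0.072 for Mt2A, -0.16 to 0.075 for Gstm7, -0.077 to 0.0095 for Gpx4, -0.090 to 0.0092 for Gstm1 and -0.034 to 0.24 for Cyp2e1.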
